A study of Mus musculus with 15 samples.

Results

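The primary granule genes described here are Mpo, Elane, Prtn3, Ctsg, Ms4a3, Serpinb1a and Cst7. They were chosen by symbol as genes that promyelocytes are known to express, and they are 7 of the 53379 genes in the deposited table. All 7 passed the minimum level for testing, which left 12673 genes. Their values were compared across 15 RNA-seq libraries from 5 lines of mouse fetal liver cells transformed with a retrovirus carrying MLL-ENL, the human leukaemia fusion of MLL and ENL. Every line was kept in IMDM with FCS and murine IL-3, and 3 RNA samples were taken from each line at different times. The p-values therefore measure the spread between samplings of single clones.

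WTFL cells, labelled wild-type, carried floxed Cebpa and Cebpb alleles (Cebpa fl/fl/Cebpb fl/fl) that had not been recombined, so both genes were intact. Lines C1 and C2 are clones grown from single colonies of cells from different mice, and clone and mouse of origin cannot be told apart. The dKO line of each clone had lost Cebpa and Cebpb through recombination by Cre, was regrown from a surviving colony and expressed GFP. Before that, partly deleted clones had been pooled, grown together and treated with Cre again, and many cells died. Whether a dKO line came from the same parental clone as the WTFL line it is compared with is not given in the sources used here. The dKO-LAP* line, analysed here for clone C1 only, was the dKO line with GFP and LAP*, the longest isoform of rat C/EBPβ. No GFP is listed for the WTFL lines. The deletions, the pooling, the passage through a recombined colony and the GFP vector therefore cannot be told apart between WTFL and dKO cells. Cebpa and Cebpb were listed at 0 reads in all 6 dKO libraries. In WTFL libraries Cebpa lay between 902.8 and 2267 normalized reads and Cebpb between 1353 and 1634. In dKO-LAP* libraries Cebpb was at 2538, 2564 and 4216 normalized reads, and these reads carry the rat sequence only as far as it matched the mouse gene.

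Primary, or azurophil, granules are the first granules made in the neutrophil lineage. They are filled at the promyelocyte stage, and transcription of their cargo is normally turned off as the cell moves on to the myelocyte stage and makes secondary granules. Their cargo includes myeloperoxidase, encoded by Mpo, a haem enzyme that makes hypochlorous acid, and the serine proteases neutrophil elastase (Elane), proteinase 3 (Prtn3) and cathepsin G (Ctsg). Serpinb1a encodes a cytosolic inhibitor of these proteases and Cst7 encodes cystatin F, an inhibitor of the cysteine proteases that activate them. Ms4a3 encodes a membrane protein of the MS4A family and marks granulocyte-monocyte progenitors. C/EBPα, C/EBPε, PU.1, RUNX1 and MYB are all known to act on promoters of this group.

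Elane and Prtn3 lie side by side on chromosome 10 (mm10), Prtn3 at chr10:79874476-79883174 and Elane at chr10:79886247-79888215, both on the plus strand. Mpo lies at chr11:87793581-87804413 on the plus strand, Ctsg at chr14:56099881-56102574 on the minus strand, Ms4a3 at chr19:11629496-11640851 on the minus strand, Serpinb1a at chr13:32842092-32851185 on the minus strand and Cst7 at chr2:150570415-150578944 on the plus strand. RefSeq promoter windows (GRCm38.p6, 250 bases before to 50 after the start) were matched by symbol for 6 of the 7 genes. The windows of Elane and Prtn3 are shown because these neighbours rose in each comparison of dKO or dKO-LAP* with WTFL cells, that of Mpo because it changed most upward, and that of Ms4a3 because it changed in 1 clone. They are written 5′ to 3′ on the strand of the gene, and capitals mark the letters searched for.
Elane, chr10:79886062-79886361, plus strand: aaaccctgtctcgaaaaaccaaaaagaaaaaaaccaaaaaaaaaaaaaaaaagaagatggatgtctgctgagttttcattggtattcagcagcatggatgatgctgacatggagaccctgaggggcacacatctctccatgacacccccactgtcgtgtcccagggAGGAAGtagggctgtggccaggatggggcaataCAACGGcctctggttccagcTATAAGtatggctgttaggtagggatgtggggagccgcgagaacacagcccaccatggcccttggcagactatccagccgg
Prtn3, chr10:79879417-79879716, plus strand: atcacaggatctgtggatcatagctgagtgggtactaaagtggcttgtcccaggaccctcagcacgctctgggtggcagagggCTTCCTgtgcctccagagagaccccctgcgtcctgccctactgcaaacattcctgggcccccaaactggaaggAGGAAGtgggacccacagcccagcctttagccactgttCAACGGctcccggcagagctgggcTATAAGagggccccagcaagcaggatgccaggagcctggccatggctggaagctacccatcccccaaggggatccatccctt
Mpo, chr11:87793534-87793833, plus strand: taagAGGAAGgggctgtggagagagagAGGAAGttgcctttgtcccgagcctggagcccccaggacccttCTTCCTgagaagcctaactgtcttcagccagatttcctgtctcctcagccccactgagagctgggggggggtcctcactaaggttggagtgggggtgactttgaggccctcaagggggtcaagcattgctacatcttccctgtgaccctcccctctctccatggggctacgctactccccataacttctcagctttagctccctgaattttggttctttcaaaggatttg
Ms4a3, chr19:11640802-11641101, minus strand: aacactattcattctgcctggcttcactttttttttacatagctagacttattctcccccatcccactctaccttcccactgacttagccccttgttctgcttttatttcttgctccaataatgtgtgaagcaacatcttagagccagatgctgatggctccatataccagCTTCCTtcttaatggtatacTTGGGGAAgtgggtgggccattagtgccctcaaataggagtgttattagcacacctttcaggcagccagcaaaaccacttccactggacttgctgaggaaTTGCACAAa

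The letters searched for were chosen after these promoters had been seen, and a match is a description of the sequence only. The ETS core AGGAAG, the kind of site that PU.1 binds, was found on either strand in 6 of 6 windows and in 35.4% of all 32851 promoter windows. The C/EBP core TTNNGNAA was found on either strand in Ms4a3 and Cst7, 2 of 6, and in 40.7% of all windows. The MYB core CAACNG was found on either strand in Elane, Prtn3 and Ctsg, 3 of 6, and in 35.0% of all windows. The RUNX core TGTGGT was found on either strand in Ctsg and Cst7, 2 of 6, and in 16.8% of all windows. The Elane and Prtn3 windows held the ETS and MYB cores in the same order on the gene strand. This was not particular to them, as Ctsg held the ETS core at -215, -206 and -15 and the MYB core at -93 on its strand. The ETS core began at -84 in Elane and -94 in Prtn3, and the MYB core at -51 and -56, counted from the start. The letters TATAAG, the core promoter element that places the start in many genes, were looked for on the gene strand, began at -31 and -32 and were found in 4.42% of all windows.

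Each library held 9212237 to 13613500 reads on genes. All values below are the deposited normalized reads, which are read counts divided by a size factor for the library. Each of the 7 genes had at least 593 reads in every library, so the precision was set by the spread between libraries rather than by counting. Differences are between means of log2(normalized reads + 1) and are given with the standard error of the limma fit over all 12673 genes. A difference was called when its Benjamini-Hochberg adjusted p over all tested genes was under 0.05. Ptprc, Itgam, Spi1 and Fcgr3, which mark blood and myeloid cells, summed to 10715 to 16511 normalized reads per library, while Alb, Ttr and Apoa1 of liver cells were at or under 3 reads in every library and Afp, the other liver marker listed, gave up to 164.6 normalized reads with them.

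In dKO cells 4 of the 7 genes, Mpo, Elane, Prtn3 and Cst7, were at a higher level than in WTFL cells of both clones. The other 3, Ctsg, Ms4a3 and Serpinb1a, were lower in dKO than in WTFL cells of clone C2 and did not pass the test in clone C1. In clone C1 the counts were 4 higher and 0 lower of 7, where 17.1% of all tested genes were called higher and 19.9% lower. In clone C2 they were 4 higher and 3 lower of 7, against 17.4% higher and 20.1% lower of all tested genes. The 2 groups of 3 libraries did not overlap for 4 genes in clone C1 and for 7 in clone C2, where 45.2% and 51.5% of all tested genes did not overlap. The median log2 difference of the 7 genes was 0.35 in clone C1 and 0.47 in clone C2, beside -0.015 and -0.027 for all tested genes. In these bulk libraries more cells of a type and more RNA per cell cannot be told apart.

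**Figure D1:**
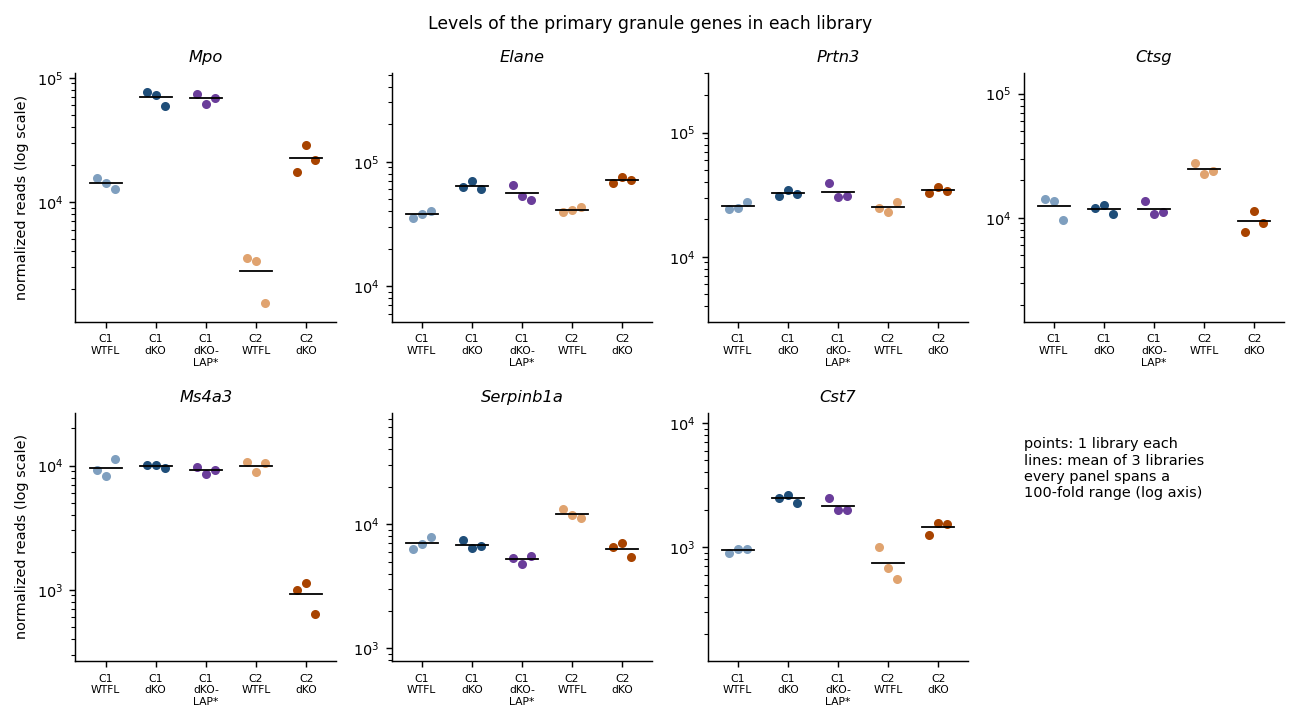
Normalized reads (log axis, each panel spanning a 100-fold range) of the 7 primary granule genes in the 15 libraries, by line; points are libraries and lines are means of 3. Mpo, Elane, Prtn3 and Cst7 sit higher in dKO than in WTFL cells of both clones, and Ms4a3 has a mean of 9157 or more in every line except the dKO line of clone C2, where its mean is 922.

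Mpo changed most upward. In clone C1 it was at 15671, 14158 and 12694 normalized reads in WTFL libraries and at 77194, 72755 and 59156 in dKO libraries. In clone C2 it was at 3513, 3347 and 1533 in WTFL libraries and at 17301, 28890 and 21867 in dKO libraries. The lowest dKO library lay above the highest WTFL library in each clone. Mpo rose 4.92-fold in clone C1 (log2 difference 2.29, SE 0.25, adjusted p = 2.77e-06) and 8.11-fold in clone C2 (3.08, SE 0.25, adjusted p = 1.45e-07). Of all tested genes, 2.41% had a larger rise in clone C1. The difference of the rises between the clones was 0.79 (95% interval 0.036 to 1.54) and was not called (adjusted p = 0.109). Without replicate 1 of the clone C2 WTFL cells its adjusted p was 0.0482. Despite the larger fold, the dKO cells of clone C2 (22686 ± 5837, SD, n = 3) stayed below those of clone C1 (69702 ± 9398, SD, n = 3). Gm11505, an antisense gene that overlaps Mpo, had means of 0.333 to 13.9 normalized reads in the 5 lines. The strand setting of the counting is not given in the sources used here, and whether reads of Gm11505 reach the Mpo count was not tested.

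The serine proteases did not move as a group. Elane, the most abundant of the 7 genes per kilobase of exon in every line, was at 34951, 37790 and 40211 normalized reads in WTFL and 62778, 69353 and 60210 in dKO libraries of clone C1. Levels in clone C2 were 39100, 40922 and 42894 in WTFL and 67647, 76021 and 70747 in dKO libraries. The groups did not overlap in either clone. Elane rose 1.70-fold in clone C1 (log2 difference 0.77, SE 0.11, adjusted p = 5.49e-05) and 1.74-fold in clone C2 (0.80, SE 0.11, adjusted p = 4.05e-05). After quantile normalization, which gives every library the same distribution of values, the rise was 0.34 in clone C1 and 0.21 in clone C2, where it was not called (adjusted p = 0.145).

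Prtn3 had the smallest called rise. It was at 24154, 24601 and 27572 normalized reads in WTFL and 30923, 34447 and 31858 in dKO libraries of clone C1. The clone C2 values were 24621, 22957 and 27573 in WTFL and 32880, 36748 and 34027 in dKO libraries. The highest WTFL library lay below the lowest dKO library in each clone. The log2 difference was 0.35 (SE 0.11, adjusted p = 0.0197) in clone C1 and 0.47 (SE 0.11, adjusted p = 0.00320) in clone C2. The call in clone C1 was lost after quantile normalization (adjusted p = 0.0963), without replicate 1 of the WTFL cells (0.0751), without replicate 2 of the WTFL cells (0.0590) and without replicate 2 of the dKO cells (0.0764). In GENCODE the start of Prtn3 overlaps the start of Plppr3 on the other strand, while the RefSeq start used for the promoter window lies further into the gene and outside Plppr3. In clone C2 Plppr3 went from a mean of 1975 to 3416 normalized reads (log2 difference 0.79, adjusted p = 4.01e-05), and whether its reads reach the Prtn3 count was not tested.

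Ctsg behaved unlike Elane and Prtn3. In clone C1 it was at 14169, 13622 and 9658 normalized reads in WTFL and 12018, 12700 and 10713 in dKO libraries, and the groups overlapped. The log2 difference there was -0.063 (95% interval -0.40 to 0.27, adjusted p = 0.791). Clone C2 had 27724, 22652 and 23660 normalized reads in WTFL and 7660, 11266 and 9141 in dKO libraries, with no overlap. It fell 2.64-fold in clone C2 (log2 difference -1.41, SE 0.16, adjusted p = 4.08e-06). The effects in the clones differed by -1.35 (SE 0.22, adjusted p = 0.000288). Of the 12673 tested genes, 29.4% differed between the clones in this test, 15.1% upward and 14.3% downward, and of the 7 genes 0 did so upward and 3 downward.

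Ms4a3 had the largest fall. In clone C1 it was at 9199, 8216 and 11209 normalized reads in WTFL and 10092, 10053 and 9482 in dKO libraries, and the groups overlapped (log2 difference 0.061, 95% interval -0.29 to 0.41, adjusted p = 0.806). In clone C2 it was at 10665, 8788 and 10470 in WTFL libraries and at 1000.1, 1130 and 636.1 in dKO libraries. That is a 10.8-fold lower mean (log2 difference -3.47, SE 0.16, adjusted p = 2.79e-10). The effects in the clones differed by -3.53 (SE 0.23, adjusted p = 3.49e-08). The 3 libraries of the clone C2 dKO line lay below all other libraries.

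Genes next to Ms4a3 on chromosome 19 were also lower in dKO cells of clone C2. Of the 3 nearest tested genes on each side, Ms4a2, which encodes the β chain of the IgE receptor, fell from a mean of 61.8 to 8.10 normalized reads (log2 difference -2.85, adjusted p = 5.88e-06). In clone C1 it rose from 34.5 to 71.2 (1.06, adjusted p = 0.0186). That rise was lost without replicate 3 of the WTFL cells (0.0847) and without replicate 1 (0.0705) or 3 (0.0554) of the dKO cells. The change of Ms4a2 differed between the clones by -3.91 (adjusted p = 1.56e-05). Oosp1 (log2 difference -2.54), Oosp2 (-2.43) and Ms4a6d (-2.05) also fell in clone C2, from means of 9.94, 6.66 and 17.9 normalized reads. Ms4a6b rose there (3.12), from 0.333 to 11.4, and Mrpl16, at 721.7 and 728.4, was not called. In clone C1 Ms4a6d (-1.59) and Oosp2 (-1.81) fell, and Oosp1 was at 15.5 and 15.7. Mrpl16 fell in clone C1 from 630.2 to 497.6 (-0.34, adjusted p = 0.0325), a call lost after quantile normalization (0.0728) and without replicate 1 or 3 of the WTFL or of the dKO cells, at 0.0669 to 0.105. The fall of Oosp2 in clone C1 was lost in the count tests and without any of 3 libraries, at adjusted p between 0.0591 and 0.162.

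**Figure D2:**
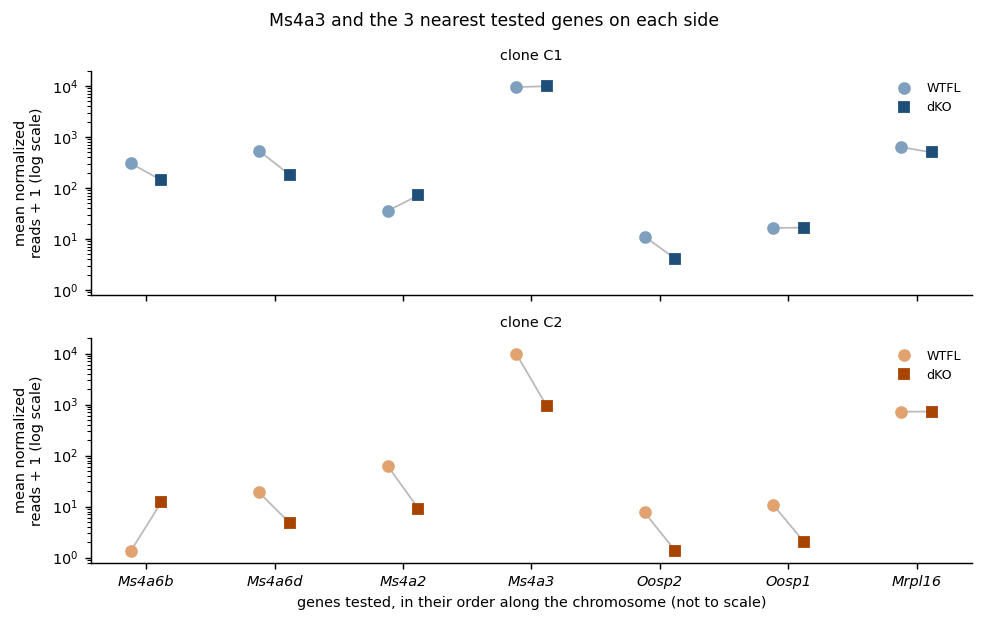
Mean normalized reads + 1 (log axis, means of 3 libraries, no error shown) of Ms4a3 and the 3 nearest tested genes on each side, in order along chromosome 19, in WTFL (circles) and dKO cells (squares). In clone C2, Ms4a3, Ms4a2, Oosp1, Oosp2 and Ms4a6d are lower in dKO cells and Ms4a6b is higher (0.333 and 11.4), while Mrpl16 at the edge is at 721.7 and 728.4.

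The protease inhibitors moved in opposite directions in clone C2. Serpinb1a was at 6286, 6957 and 7885 normalized reads in WTFL and 7441, 6376 and 6643 in dKO libraries of clone C1, and the groups overlapped (log2 difference -0.043, 95% interval -0.27 to 0.19, adjusted p = 0.793). Levels in clone C2 were 13143, 11841 and 11174 in WTFL and 6526, 7020 and 5403 in dKO libraries, and it fell 1.91-fold (log2 difference -0.94, SE 0.11, adjusted p = 6.34e-06). The effects differed between the clones by -0.89 (SE 0.15, adjusted p = 0.000419). Serpinb1b and Serpinb1c, close copies of Serpinb1a, were at or under 3 reads in all 15 libraries.

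By line means, Cst7 was the least abundant of the 7 genes per kilobase of exon in all lines but the dKO line of clone C2. It lay near Mpo in WTFL cells of clone C2 (758 ± 230 and 817 ± 321, SD, n = 3). In dKO-LAP* cells it lay near Serpinb1a (2188 ± 295 and 2265 ± 176). Cst7 was at 905.8, 962.4 and 967.0 normalized reads in WTFL and 2503, 2637 and 2259 in dKO libraries of clone C1. The clone C2 values were 998.8, 685.7 and 557.9 in WTFL and 1263, 1553 and 1542 in dKO libraries. The groups did not overlap in either clone. It rose 2.61-fold in clone C1 (log2 difference 1.38, SE 0.16, adjusted p = 4.83e-06) and 1.94-fold in clone C2 (0.99, SE 0.16, adjusted p = 0.000140). The difference of the rises was -0.39 (95% interval -0.86 to 0.090, adjusted p = 0.220) and was called without replicate 3 of the clone C2 WTFL cells (0.0438).

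**Figure D3:**
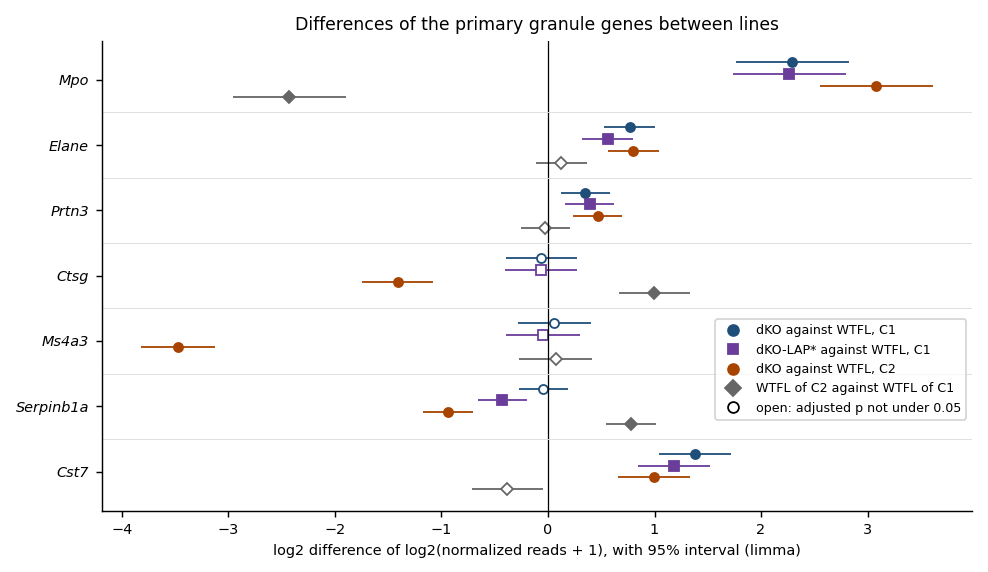
Log2 differences of the 7 genes with 95% intervals from the limma fit, for dKO against WTFL cells in clones C1 and C2, dKO-LAP* against WTFL cells in clone C1 and WTFL cells of clone C2 against those of clone C1; open symbols did not pass the test. Ctsg, Ms4a3 and Serpinb1a sit near 0 in dKO cells of clone C1 and at -1.41, -3.47 and -0.94 in those of clone C2.

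Together the 7 genes took 0.879% ± 0.033 (SD, n = 3) of the reads on genes in WTFL cells of clone C1 and 1.70% ± 0.12 in its dKO cells. In clone C2 the share was 0.968% ± 0.044 and 1.18% ± 0.13. Their make-up was compared per kilobase of exon, so that genes of different length are on 1 scale. Elane gave the largest part in every line, from 45.3% in WTFL cells of clone C2 to 64.4% in dKO cells of clone C2. Mpo went from 5.30% to 16.1% of the 7 genes in clone C1 and from 0.891% to 5.81% in clone C2. Ctsg went from 25.9% to 7.97% in clone C2, and Ms4a3 from 5.74% to 0.433%. In clone C1 Ctsg went from 15.5% to 9.04%, although its own level did not pass the test. The ratio of Prtn3 to Elane per kilobase was 0.370 to 0.393 in the WTFL libraries of clone C1 and 0.280 to 0.301 in its dKO libraries. In clone C2 it was 0.319 to 0.365 and 0.273 to 0.276, and dKO libraries were below WTFL libraries without overlap in both clones. Mpo ranged from 0.0103 to 0.398 of Elane.

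**Figure D4:**
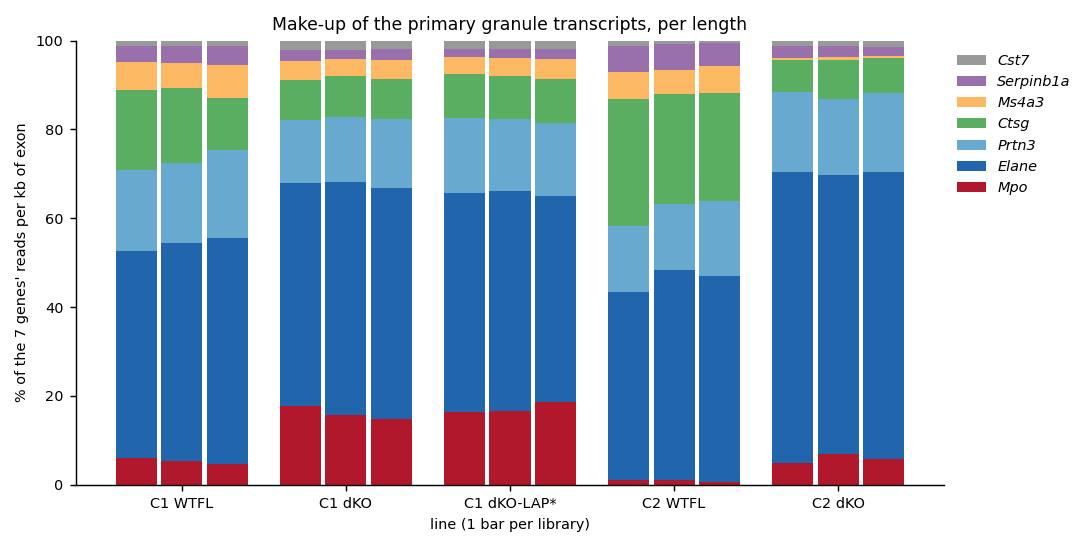
Share of each gene in the summed reads per kilobase of exon of the 7 genes (percent, stacked from 0), with 1 bar per library. Mpo takes 16.1% in dKO cells of clone C1 and 5.81% in those of clone C2 on average, and Ctsg takes 25.9% in WTFL cells of clone C2.

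The WTFL lines already differed before any deletion. Mpo was lower in clone C2 than in clone C1 (log2 difference -2.43, SE 0.25, adjusted p = 1.04e-06), Ctsg was higher (1.00, SE 0.16, adjusted p = 8.89e-05) and Serpinb1a was higher (0.78, SE 0.11, adjusted p = 2.76e-05). These were 2 higher and 1 lower of 7, where 19.7% of all tested genes were higher and 21.3% lower. Ctsg and Serpinb1a thus fell in clone C2 from a higher level. In its dKO cells Ctsg was at 9356 ± 1813 and Serpinb1a at 6316 ± 829 normalized reads (SD, n = 3), beside 11811 ± 1009 and 6820 ± 554 in dKO cells of clone C1, and the libraries of these lines overlapped for both genes. This does not hold for Ms4a3, whose WTFL levels were 9541 ± 1526 in clone C1 and 9974 ± 1032 in clone C2 (log2 difference 0.071, 95% interval -0.28 to 0.42, adjusted p = 0.768). Cst7 differed by -0.38 (95% interval -0.72 to -0.043) and was not called (adjusted p = 0.0679), though it was without replicate 1 of the clone C2 WTFL cells (0.00126). These WTFL libraries also enter the dKO comparisons, so the comparisons are not independent of each other.

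LAP* was compared with its parent dKO line in clone C1, which asks whether the level of these genes returns when a C/EBPβ isoform is put back. In limma 0 of the 7 genes were called, 1 had an unadjusted p under 0.05, edgeR called 0, and DESeq2 called 1. Limma called 4.46% of all tested genes, 565 in number, beside 600 in edgeR and 787 in DESeq2. Mpo was at 74549, 61315 and 68504 normalized reads in dKO-LAP* libraries, which overlap the dKO libraries (log2 difference -0.028, 95% interval -0.56 to 0.50). Elane was at 64821, 52938 and 49473 (-0.21, 95% interval -0.45 to 0.030), and Cst7 at 2493, 1998 and 1982 (-0.20, 95% interval -0.54 to 0.14). None of the intervals of Mpo, Elane and Cst7 reaches down to a loss of the whole rise in dKO cells, which was 2.29, 0.77 and 1.38. Prtn3 differed by 0.040, Ctsg by -0.0028 and Ms4a3 by -0.11. Serpinb1a, at 5351, 4763 and 5537, lay below every dKO library (-0.39, 95% interval -0.62 to -0.16). Its adjusted p was 0.0570 in limma and 0.0173 in DESeq2.

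Set against the WTFL cells of clone C1, which also serve the dKO comparison, dKO-LAP* cells had 4 genes higher and 1 lower of 7, where 14.2% of all tested genes were higher and 18.3% lower. Mpo was 4.81-fold higher (log2 difference 2.27, adjusted p = 3.44e-06), Cst7 2.28-fold (1.18, adjusted p = 2.56e-05), Elane 1.48-fold (0.56, adjusted p = 0.00107) and Prtn3 1.32-fold (0.39, adjusted p = 0.0118). The Elane call was lost after quantile normalization (0.27, adjusted p = 0.0681). The Prtn3 call was lost when only the groups compared were fitted (0.0859) and without replicate 1 of the dKO-LAP* cells (0.0633). Serpinb1a was lower (-0.43, adjusted p = 0.00614).

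Other contents of primary granules did not all follow the 7 genes. Of 10 listed genes, 5 were higher and 3 lower in dKO cells of clone C1, and 3 higher and 2 lower in clone C2, with median log2 differences of 0.17 and 0.23. The shares over all tested genes were 17.1% higher and 19.9% lower in clone C1 and 17.4% and 20.1% in clone C2. Prss57, which encodes the granule protease NSP4 and lies at chr10:79781474-79790961 near Prtn3 and Elane, rose from 360.5 ± 32.7 to 1592 ± 145 normalized reads in clone C1 (2.14, adjusted p = 3.65e-09). The clone C2 rise was from 392.8 ± 45.8 to 1723 ± 255 (2.13, adjusted p = 4.49e-09). Cd63, a membrane protein of these granules and of lysosomes, rose in clone C1 (0.84) and clone C2 (0.68). The lysosomal proteases Ctsb and Ctsd fell in both clones. Ctsb changed by -1.55 in clone C1 and -0.72 in clone C2. Ctsd changed by -0.80 (adjusted p = 1.62e-05) in clone C1 and went from a mean of 7412 to 3699 (adjusted p = 2.16e-06) in clone C2. In dKO-LAP* cells 0 of the 10 genes were higher and 3 lower than in dKO cells of clone C1. Limma called 4.46% of all tested genes in that comparison, in either direction.

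Genes that activate or restrain granule proteases were mostly lower in clone C1. Of 13 listed genes 10 were tested, and 0 were higher and 6 lower in clone C1 and 1 higher and 4 lower in clone C2, with median log2 differences of -1.22 and -0.050. Over all tested genes 17.1% were higher and 19.9% lower in clone C1, and 17.4% and 20.1% in clone C2. Ctsc, which encodes the dipeptidyl peptidase that activates elastase, proteinase 3 and cathepsin G, fell in clone C1 from 5934 ± 1960 to 1413 ± 99 normalized reads (-2.01, adjusted p = 5.86e-07). In clone C2 it was at 1377 ± 96 and 1361 ± 137, and the effects of the clones differed by 1.99 (adjusted p = 4.74e-05). Elane and Prtn3 were thus higher in dKO cells of clone C1 while the transcript of their activating enzyme was lower. Ctsl, a lysosomal cysteine protease, fell in both clones (-2.28 and -0.68), as did its inhibitor Cstb (-1.01 and -0.22), although the latter call in clone C2 (adjusted p = 0.0296) was lost without either of 2 WTFL or 2 dKO libraries, at up to 0.110. Serpinb6a, which encodes an inhibitor of cathepsin G, fell from 382.5 ± 29.6 to 86.5 ± 16.6 in clone C2 (-2.14, adjusted p = 1.22e-08). It was at 141.2 ± 9.0 and 160.4 ± 20.0 in clone C1, and the effects of the clones differed by -2.32 (adjusted p = 5.73e-07).

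For genes that supply haem to Mpo and fold it, the shares called were near those of all tested genes. Of 11 genes of haem synthesis and of chaperones that handle the Mpo precursor, 1 was higher and 2 lower in clone C1 and 2 higher and 3 lower in clone C2, with median log2 differences of 0.019 and -0.15. All tested genes were 17.1% higher and 19.9% lower in clone C1 and 17.4% and 20.1% in clone C2. Alas1, the first enzyme of haem synthesis, fell in clone C1 from 11455 ± 1491 to 5622 ± 250 normalized reads (-1.02, adjusted p = 3.69e-06). In clone C2 it was at 10909 ± 1306 and 11505 ± 92, and the effects of the clones differed by 1.10 (adjusted p = 0.000103). Ppox, a late enzyme of the pathway, rose in both (0.31, adjusted p = 0.0130, and 0.75, adjusted p = 7.29e-06), although the first call was lost without replicate 2 of the dKO cells (0.0752). Calr, which encodes the chaperone calreticulin, rose in clone C2 from 28535 ± 2848 to 43427 ± 6105 (0.60, adjusted p = 0.000427).

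Among 11 transcription factors known to act on these genes, 4 were higher and 5 lower in clone C1, and 3 higher and 2 lower in clone C2, beside 17.1% and 19.9%, and 17.4% and 20.1%, of all tested genes. The deleted Cebpa and Cebpb are counted, and they were the 2 lower ones in clone C2. Cebpe, the C/EBP gene of the later granulocyte stages, rose from 407.5 ± 55.8 to 2107 ± 143 normalized reads in clone C1 (2.37, adjusted p = 8.01e-11). In clone C2 it rose from 505.0 ± 10.5 to 2222, 2120 and 2155 in the dKO libraries (2.10, adjusted p = 3.59e-10). Myb rose in both clones (0.52, adjusted p = 0.000985, and 0.70, adjusted p = 6.79e-05). Gfi1, a repressor needed for granulocytes, rose in clone C1 (0.53, adjusted p = 0.000145) and went from 5193 ± 377 to 4556 ± 521 in clone C2, which was not called. The effects on Gfi1 differed between the clones by -0.72 (adjusted p = 0.000333). Irf8, which favours monocytes over granulocytes, fell in clone C1 (-1.58, adjusted p = 3.66e-06) and was at 89.0 ± 14.4 and 68.8 ± 7.5 in clone C2, with a difference between the clones of 1.22 (adjusted p = 0.00160).

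**Figure D5:**
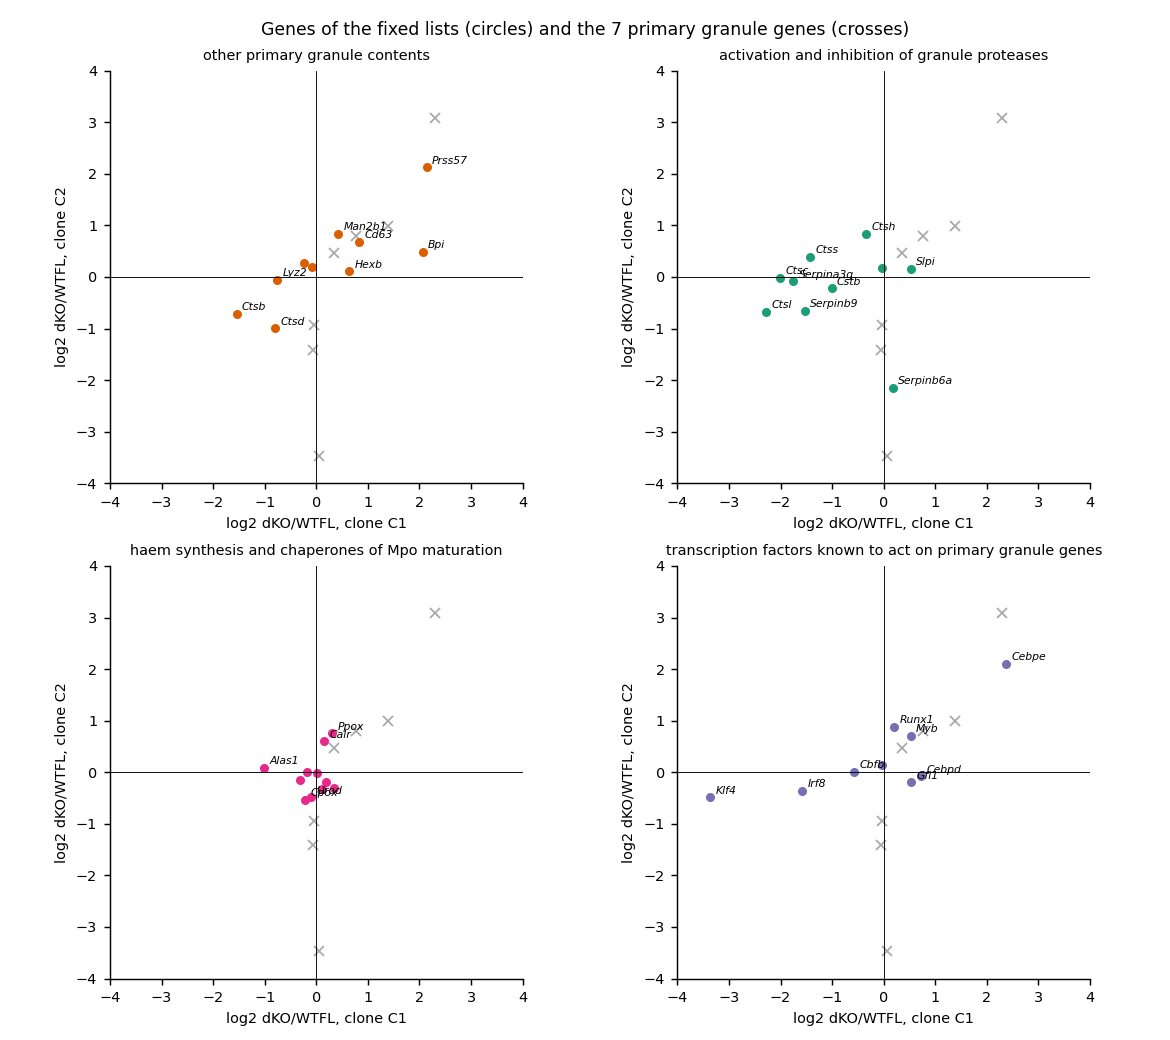
Log2 differences of dKO against WTFL cells in clone C1 (x axis) and clone C2 (y axis) for the tested genes of the 4 lists, without the deleted Cebpa and Cebpb; grey crosses are the 7 primary granule genes, and genes within 0.4 of 0 in both clones carry no name. Prss57 and Cebpe lie high in both clones, near 2 on each axis, and Serpinb6a lies low in clone C2 alone.

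Markers of other granule stages and cell types moved with the same comparisons, in which 17.1% of all tested genes were called higher and 19.9% lower in dKO cells of clone C1, and 17.4% and 20.1% in those of clone C2. All 7 eosinophil markers rose in dKO cells of clone C1, from a summed 28.1 to 140 normalized reads per library to 8580 to 17182, and 5 rose and 1 fell in clone C2, from 4.98 to 23.8 up to 216.6 to 332.4. Of 7 secondary and tertiary granule genes 6 rose in clone C1 (summed 6395 to 11529 in WTFL, 30584 to 34785 in dKO) and 3 rose and 1 fell in clone C2 (8132 to 17769, and 12820 to 20611). Of 5 tested mast cell and basophil markers, 5 rose in clone C1 (103.9 to 144.5, and 2893 to 3301) and 3 rose and 1 fell in clone C2 (180.5 to 191.9, and 974.96 to 1379), with Fcer1a and Tpsb2 at or under 3 reads in each library of all lines. Of 7 monocyte and macrophage markers 6 fell in clone C1 (34881 to 50651, and 21149 to 24694) and 3 fell and 1 rose in clone C2 (18201 to 19603, and 13553 to 15879). Of 5 tested stem and progenitor markers 3 rose and 1 fell in clone C1 (2056 to 2311, and 5658 to 6184) and 3 rose in clone C2 (1238 to 1299, and 8517 to 9514). In dKO-LAP* cells all 7 eosinophil markers (summed 769.7 to 1836) and all 7 secondary and tertiary granule genes (8045 to 8277) were lower than in dKO cells of clone C1, while limma and edgeR called 0 of the 7 primary granule genes and DESeq2 called 1, Serpinb1a. Limma called 0 of the 10 other listed contents of primary granules higher and 3 lower in that comparison. Of all tested genes limma called 4.46% in that comparison, or 565, edgeR 600 and DESeq2 787. The part of these markers in the levels of the primary granule genes was not tested. Of 3 tested erythroid and megakaryocyte markers 2, Itga2b and Gata1, rose and Pf4 fell in clone C1 (summed 22.4 to 45.1, and 195.9 to 312.6), and the same 2 rose in clone C2 (17.9 to 35.7, and 121.5 to 199.8). Lymphoid and NK markers were at or under 3 reads in every library.

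Of the 3 nearest tested genes on each side of each gene, 36 different genes with those on chromosome 19, 10 were higher and 8 lower in clone C1, beside 17.1% and 19.9% of all tested genes. In clone C2 8 were higher and 10 lower, beside 17.4% and 20.1%. Tspoap1, next to Mpo, rose in clone C1 (1.18, adjusted p = 3.53e-05) and was at means of 1126 and 1285 normalized reads in clone C2. Epx, which encodes eosinophil peroxidase and lies 59587 bases from Mpo, went from a mean of 0 to 2689 ± 990 in clone C1 and was at 0.917 and 125.3 ± 29.6 in clone C2. Acss1, near Cst7, rose in clone C1 from 68.3 ± 5.4 to 236.0 ± 24.9 (1.77, adjusted p = 1.88e-07) and in clone C2 from 53.3 ± 4.6 to 130.8 ± 25.2 (adjusted p = 8.21e-06).

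Across the 15 libraries, which are 3 samplings of each of 5 lines and share that structure, Mpo and Cst7 had a Pearson r of 0.94 on the log2 scale, Elane and Prtn3 of 0.92 and Ctsg and Serpinb1a of 0.80, while Mpo and Serpinb1a had -0.83. The other genes most like each one were Rps6ka2 (0.98), Med12l and Gpr183 for Mpo, and Zbtb16 (0.97), Palm and Mc5r for Elane. Ribosomal protein genes led for Prtn3, Rpl23a (0.96), Rpl22 and Rps6. Mfn2 (0.94), Dnaaf5 and Praf2 were most like Ctsg, and Clstn3 (0.99), 0610040J01Rik and Zfp760 were most like Ms4a3. Ptpn2 (0.95), Hs3st3b1 and Odf2 were most like Serpinb1a, and Ano4 (0.97), Igfbp4 and Tspan32 were most like Cst7. In clone C2 Clstn3 went from a mean of 276.9 to 20.2 normalized reads (log2 difference -3.71), and of 267.3 and 337.6 in clone C1.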

How the data were processed

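RNA was sequenced from 15 samples (5 lines, 3 samplings each) after poly(A) selection with a stranded TruSeq kit. Per the labels, the authors aligned reads to mm10 with STAR 2.5.3a, counted them per gene with HTSeq 0.10.0 and normalized with DESeq2 1.26.0. The annotation and strand setting of the counting are not given in the sources used here. The deposited signal values are read counts divided by a size factor, and whole reads were recovered from them for at least 99.99% of values per library, within 0.1 read. Rows that name no gene (22.4% to 26.2% of reads) were left out, as were 3 columns that matched no sample.

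Tests were run on genes that reached 10 normalized reads in 3 or more libraries, with limma 3.58.1 on log2(normalized reads + 1) over all 15 libraries, without pairing, with Benjamini-Hochberg adjustment. edgeR 4.0.16 and DESeq2 1.42.0 on recovered reads were alternatives. Named genes were the 7, up to 4 of each list (beside them the deleted Cebpa and Cebpb and the Serpinb1a copies Serpinb1b and Serpinb1c), the 3 nearest tested genes on each side and the 3 most correlated genes, and those given with values among neighbours and correlated genes were picked after these were seen. The 7 genes and the lists were chosen with earlier results of these data known. The fits were tested on simulated counts with known changes. For dKO against WTFL cells limma recovered 82.47% of log2 changes of size 1 in clone C1 and 77.55% in clone C2. For the difference between clones it recovered 48.45% of them. Positions come from GENCODE vM21 on GRCm38.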

Additional observations from a re-analysis of the deposited data

Results flagged for a closer look

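The difference between dKO and WTFL cells was not the same in clones C1 and C2 for 3 of the 7 genes, by the interaction term of limma adjusted over all tested genes. The same test called 29.4% of all tested genes, 15.1% upward and 14.3% downward. On the log2 scale the difference in clone C2 minus that in clone C1 was -1.35 for Ctsg, -3.53 for Ms4a3 and -0.89 for Serpinb1a. For each of these genes all dKO libraries lay below all WTFL libraries in clone C2, and the groups overlapped in clone C1. Of all tested genes, 51.5% did not overlap in clone C2 and 45.2% did not in clone C1. Clone and mouse of origin cannot be told apart.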

How the results depend on the processing

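Under 8 alternatives (pseudocounts of 0.1 and 5, no filter, quantile normalization, only the compared groups, a replicate block, edgeR and DESeq2) and without each library in turn, the number of the 7 genes called stayed within 1.5 times in 5 of 6 comparisons. In the sixth, dKO-LAP* against dKO cells, DESeq2 called 1 gene (Serpinb1a) and limma 0. Values near 0 that were never called changed sign. After quantile normalization these were Mpo 0.0701 and Ctsg 0.0298 in dKO-LAP* against dKO cells, Ctsg 0.00341 and Ms4a3 0.0427 in dKO-LAP* against WTFL cells, Serpinb1a 0.0609 in dKO against WTFL cells of clone C1, and Elane -0.13 in the difference between clones. Ctsg in dKO-LAP* against dKO cells was 0.00931 in edgeR and 0.00271 in DESeq2. With 1 library left out, dKO-LAP* minus dKO ranged from -0.142 to 0.0498 for Mpo, -0.0796 to 0.105 for Prtn3 and -0.113 to 0.0626 for Ctsg. dKO-LAP* minus WTFL ranged from -0.241 to 0.0359 for Ctsg and -0.151 to 0.0731 for Ms4a3. In clone C1, dKO minus WTFL ranged from -0.238 to 0.0387 for Ctsg, -0.0407 to 0.183 for Ms4a3 and -0.122 to 0.0413 for Serpinb1a. Between WTFL lines the range was -0.0953 to 0.0368 for Prtn3 and -0.0311 to 0.193 for Ms4a3, and the difference between clones was -0.0143 to 0.0923 for Elane. The causes were not tested. Mpo in the difference between clones was called after quantile normalization (0.99, adjusted p = 0.0460).

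Deviations of same-numbered samples of different lines correlated at -0.319 to 0.297, with 5 of 30 pairs above 0.1. The median was 0.016, beside -0.022 for samples of different numbers, and 6 of 15 libraries were most like one of their own number. The main fit used no pairing. With a replicate block, 4 and 7 of the 7 genes were called in clones C1 and C2, 3 in the difference between clones, and 0, 5 and 3 in the other comparisons, as without it. Over all tested genes, quantile normalization moved the share of higher calls from 46.3% to 56.6% for dKO cells of clone C1 and from 43.6% to 56.9% for dKO-LAP* against WTFL cells. The 565 calls of dKO-LAP* against dKO cells fell to as few as 276 without 1 library and to 403 with only the compared groups. Of 360 recounts of the fixed lists 14 were lower by over 1.5 times, the lowest in clone C2 being 3 in place of 5 genes for the protease list. Of 720 recounts of the marker lists 37 were lower and 17 higher by over 1.5 times, and of 680 values of the other named genes 23 lost their call and 0 reversed.

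With 1 dKO line per clone, the spread covers samplings of a line and not differences between dKO colonies. Among neighbours, means under 10 normalized reads, which Epx, Gm11505, Sdr39u1, Gzmb, Serpinb9g, Ms4a2, Ms4a6b, Ms4a6d, Oosp1 and Oosp2 had in some lines, carry large counting error.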

Other observations

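Other genes near Ctsg and Serpinb1a, noticed after their values were seen, stood at or near 0 in some lines. Gzmb, which encodes granzyme B and lies 156264 bases from Ctsg, was at a mean of 0 normalized reads in WTFL cells of both clones, 101.8 ± 21.8 in dKO and 2.51 ± 0.99 in dKO-LAP* cells of clone C1, and 0.707 ± 0.612 in dKO cells of clone C2. Sdr39u1, on the other side of Ctsg, was at 24.1 ± 17.5 and 76.0 ± 10.6 in WTFL cells of clones C1 and C2, at a mean of 0 in dKO and dKO-LAP* cells of clone C1 and at 0.35 ± 0.61 in dKO cells of clone C2. Serpinb9g, of the serpin cluster that holds Serpinb1a, went from 500.3 ± 92.8 to 32.3 ± 21.1 in clone C1, with 107.8 ± 38.1 in dKO-LAP* cells, and from 32.3 ± 5.3 to 3.04 ± 1.91 in clone C2.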
